A study of Mus musculus with 32 samples.

Results

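The genes followed were the 9 channels Trpc1, Trpc6, Trpm4, Trpm7, Trpv2, Trpv4, Pkd2, Piezo1 and Piezo2, which have been named as candidate pressure sensors in the arterial wall. They were the 9 of 55357 rows of the read count table whose Ensembl identifier belongs to one of these symbols. Brain arteries of 32 mice were sequenced, 1 library per mouse and 8 mice per group. The 3-month-old groups were Notch3-/- mice, which carry a null allele of the receptor gene, and their Notch3+/+ littermates. The 12-month-old groups were TgNotch3R169C mice and their non-transgenic (WT) littermates. The transgene is an X-linked artificial chromosome that holds rat Notch3 with the Arg169Cys change next to the intact mouse gene, so it adds copies of the receptor as well as a mutation, and both sexes were used without a sex label per mouse. All lines were on a C57BL/6 background. Arteries were taken whole, so every value below is a mixture over the cells of the dissected tissue, and fewer cells of a type and less RNA per cell cannot be told apart.

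The vessels of the brain contract when pressure rises, a response called myogenic tone. In the usual account, stretch of the smooth muscle membrane opens cation channels, the cell depolarizes, voltage-gated calcium channels open, and the cell shortens; some of these cation channels are thought to be opened by lipid messengers made downstream of stretched Gq-coupled receptors rather than by tension itself. Piezo channels are opened by membrane tension directly. TRP channels are a large family of cation channels, and several of its members respond to stretch, swelling or flow in one cell type of the wall or another.

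Libraries held 20289487 to 54481934 counted reads. Notch3 itself followed the labels, at 13.7 to 18.5 CPM (read counts scaled to library size, with library sizes scaled by the trimmed mean of M values) in Notch3-/- mice against 65.8 to 98.1 CPM in Notch3+/+ mice, and at 108.0 to 218.8 CPM in TgNotch3R169C mice against 60.1 to 85.0 CPM in WT mice. Every one of the 8 smooth muscle markers was detected in every group, with a summed level of 2439 to 4361 CPM in Notch3+/+, 1669 to 2607 CPM in Notch3-/-, 1355 to 2111 CPM in WT and 1135 to 1763 CPM in TgNotch3R169C mice. A set of 7 libraries stood apart by their content of choroid plexus, the secretory tissue of the ventricles: 1 of 8 Notch3-/-, 4 of 8 WT and 2 of 8 TgNotch3R169C libraries, and 0 of 8 Notch3+/+ libraries, held more than 1000 CPM of its marker Ttr. In these 7 libraries Ttr was at 7895 CPM or more, and in the other 25 it was at 328.9 CPM or less. Results that rest on them are given with and without them where both were computed, except where only 1 set of libraries is named.

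Each of the 9 channels was transcribed in every one of the 32 libraries, at levels that differed widely between genes. Ranked by CPM per kilobase of exon, a level that can be compared between genes, the mean over all libraries was 34.9 for Pkd2, 12.5 for Trpm7, 11.8 for Trpv4, 10.2 for Trpv2, 9.75 for Piezo1, 3.38 for Trpm4, 2.57 for Piezo2, 2.12 for Trpc1 and 0.446 for Trpc6. Pkd2 was thus the highest and Trpc6 the lowest on this scale. In Notch3+/+ mice, neighbours in this order were compared within each mouse by an exact two-sided sign-flip permutation test, and all 8 pairs differed, every one with the same member higher in 8 of 8 mice (exact p = 0.0078, the smallest that 8 mice allow; adjusted p = 0.0104 over 16 tests). For 7 of them the member ranked higher over all libraries was the higher; Trpv4 was instead below Trpv2 in all 8 Notch3+/+ mice, by a mean log2 ratio of −0.61 (SD 0.233). Without the 7 choroid plexus-rich libraries Trpv4 ranked 5th, at 7.55 CPM per kilobase, and the other members kept their sequence.

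**Figure D1:**
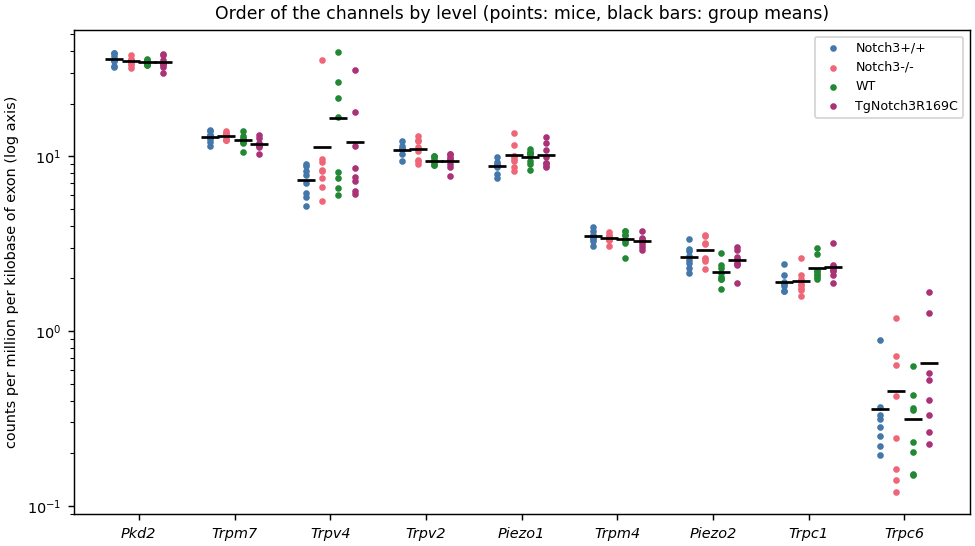
CPM per kilobase of exon (log axis) of each channel, from the highest to the lowest mean over all libraries; points are mice coloured by group and black bars are group means. The mean of Pkd2 lies above the other means and that of Trpc6 below them in every group, while single Trpv4 points reach the level of Pkd2.

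In WT mice 4 of the 8 neighbours were separated by the same test, at adjusted p = 0.0104 each: Pkd2 above Trpm7, Piezo1 above Trpm4, Trpm4 above Piezo2, and Trpc1 above Trpc6. The other 4 pairs did not pass it. The mean log2 ratio was −0.098 (SD 0.959) for Trpm7 to Trpv4, 0.48 (SD 1.05) for Trpv4 to Trpv2, −0.066 (SD 0.132) for Trpv2 to Piezo1 and −0.084 (SD 0.375) for Piezo2 to Trpc1. In both pairs with Trpv4 the first-named member was higher in 4 of 8 mice. Trpv4 stood at 68.4 to 160.5 CPM in the 4 choroid plexus-rich WT libraries and at 24.5 to 32.9 CPM in the other 4. These ratios were not tested without the choroid plexus-rich libraries. Members that are not neighbours in the order were not tested, and neither was the order in Notch3-/- or TgNotch3R169C mice. All ratios between members rest on annotated exon length, which misstates a level where a gene's main transcript is shorter than all of its exons together.

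Trpc1 and Trpc6 encode channels linked to receptor signalling. TRPC1 is a subunit that joins other TRPC proteins in cation channels coupled to receptors and calcium stores, and TRPC6 is opened by diacylglycerol and has been tied to pressure-induced depolarization of cerebral arteries. Trpc1 (ENSMUSG00000032839) ranged from 13.6 to 19.4 CPM (median 15.0) in Notch3+/+ and from 12.8 to 21.1 CPM (median 14.8) in Notch3-/- mice. At 12 months it ranged from 15.998 to 24.008 CPM (median 17.4) in WT and from 15.0 to 25.5 CPM (median 18.2) in TgNotch3R169C mice. The mutant and control ranges overlapped almost completely at both ages. The 7 choroid plexus-rich libraries held 15.998 to 25.5 CPM (median 21.1) and the other 25 held 12.8 to 19.4 CPM (median 15.8).

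Trpc6 (ENSMUSG00000031997) was the scarcest member, with 16 to 324 reads per library. It ranged from 0.992 to 4.48 CPM (median 1.51) in Notch3+/+ and from 0.608 to 6.05 CPM (median 1.70) in Notch3-/- mice. It ranged from 0.762 to 3.20 CPM (median 1.48) in WT and from 1.15 to 8.45 CPM (median 2.35) in TgNotch3R169C mice. Its spread was the widest of the 9 members in 2 of the 4 groups, with a coefficient of variation of 62.0%, 82.6%, 52.5% and 79.8% in Notch3+/+, Notch3-/-, WT and TgNotch3R169C mice, Trpv4 being wider in Notch3-/- and WT mice. A few mice carried the high values: 1 Notch3+/+ library stood at 4.48 CPM and the next at 1.87 CPM, and 2 TgNotch3R169C libraries stood at 6.42 and 8.45 CPM while the other 6 stood at 2.92 CPM or less.

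The start regions of both genes are shown because they were the only members with a match to either of the motifs searched on both strands, the core TGGGAA bound by RBPJ, the DNA-binding partner of Notch receptors, and the CArG box bound by serum response factor at smooth muscle genes. Each run of 300 bases spans an annotated start and comes from RefSeq (GRCm38.p6), with the motif in capitals. RefSeq promoters were at hand for 7 of the 9 members; none was at hand for Trpm4 and Piezo2. The RBPJ core occurred in 25.6% and the CArG box in 1.63% of 32851 promoters of this length, and no 2 matches overlapped. A match is a string of letters and no evidence of binding. The Trpc1 run lies at chr9:95750299-95750598 on the minus strand and holds the RBPJ core on the opposite strand, and the Trpc6 run lies at chr9:8543892-8544191 on the plus strand and holds the CArG box.
Trpc1: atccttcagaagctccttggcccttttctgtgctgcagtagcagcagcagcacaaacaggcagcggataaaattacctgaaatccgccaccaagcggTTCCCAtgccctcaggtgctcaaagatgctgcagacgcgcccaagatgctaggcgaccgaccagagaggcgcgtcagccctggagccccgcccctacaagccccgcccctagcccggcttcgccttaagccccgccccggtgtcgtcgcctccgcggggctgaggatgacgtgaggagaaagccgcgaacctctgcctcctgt
Trpc6: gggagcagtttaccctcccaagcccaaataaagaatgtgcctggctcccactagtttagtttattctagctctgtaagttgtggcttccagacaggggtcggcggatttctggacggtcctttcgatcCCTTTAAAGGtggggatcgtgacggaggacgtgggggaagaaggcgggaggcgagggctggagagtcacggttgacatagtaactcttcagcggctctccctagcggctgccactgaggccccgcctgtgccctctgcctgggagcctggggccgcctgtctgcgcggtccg

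Trpm4 and Trpm7 encode 2 ion channels of the melastatin branch. TRPM4 is opened by intracellular calcium, passes sodium and potassium, and depolarizes smooth muscle of cerebral arteries; TRPM7 is a magnesium- and calcium-permeable channel fused to a protein kinase. Trpm4 (ENSMUSG00000038260) ranged from 33.4 to 42.6 CPM (median 37.3) in Notch3+/+ and from 33.1 to 40.1 CPM (median 36.6) in Notch3-/- mice. It ranged from 28.4 to 40.3 CPM (median 37.5) in WT and from 31.5 to 40.6 CPM (median 35.6) in TgNotch3R169C mice. A single WT library at 28.4 CPM lay below the rest of its group, which began at 34.7 CPM. Trpm7 (ENSMUSG00000027365) ranged from 130.1 to 159.1 CPM (median 147.4) in Notch3+/+ and from 139.4 to 158.5 CPM (median 146.6) in Notch3-/- mice. It ranged from 119.5 to 157.0 CPM (median 139.2) in WT and from 116.0 to 149.9 CPM (median 131.4) in TgNotch3R169C mice. Both genes were even between mice, with a coefficient of variation of 5.18% to 10.6% in every group.

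Trpv2 and Trpv4 encode vanilloid-branch channels that respond to swelling and stretch. TRPV2 is found in arterial myocytes and macrophages among other cells, and TRPV4 is a calcium channel of endothelium and smooth muscle that is also abundant in choroid plexus epithelium. Trpv2 (ENSMUSG00000018507) ranged from 42.2 to 54.6 CPM (median 49.2) in Notch3+/+ and from 40.3 to 58.8 CPM (median 49.3) in Notch3-/- mice. It ranged from 39.97 to 45.0 CPM (median 42.2) in WT and from 34.4 to 46.3 CPM (median 42.8) in TgNotch3R169C mice. Both 12-month groups lay near the bottom of the 3-month ranges.

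Trpv4 (ENSMUSG00000014158) ranged from 21.3 to 37.0 CPM (median 30.2) in Notch3+/+ and from 22.6 to 144.6 CPM (median 33.8) in Notch3-/- mice. It ranged from 24.5 to 160.5 CPM (median 50.6) in WT and from 24.7 to 126.5 CPM (median 33.1) in TgNotch3R169C mice. The high values were those of the choroid plexus-rich libraries. The 7 of them held 68.4 to 160.5 CPM of Trpv4 (median 108.7), and the other 25 held 21.3 to 46.8 CPM (median 30.6), so the 2 sets of libraries did not overlap. Among the 25, the medians were 30.2 CPM in 8 Notch3+/+, 33.5 CPM in 7 Notch3-/-, 28.8 CPM in 4 WT and 30.3 CPM in 6 TgNotch3R169C mice. Its start region, shown because Trpv4 had the larger fold change of the 2 members called between the control groups, lies at chr5:114658372-114658671 on the minus strand (GRCm38.p6, RefSeq), has a GC content of 73.0% against a median of 52.7% over all 32851 promoters, and held neither motif.
Trpv4: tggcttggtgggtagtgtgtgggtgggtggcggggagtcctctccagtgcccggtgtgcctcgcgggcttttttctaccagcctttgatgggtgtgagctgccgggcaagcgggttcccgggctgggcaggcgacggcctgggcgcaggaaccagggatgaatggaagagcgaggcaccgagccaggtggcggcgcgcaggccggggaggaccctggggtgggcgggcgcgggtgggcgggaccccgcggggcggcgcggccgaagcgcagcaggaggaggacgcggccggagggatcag

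**Figure D2:**
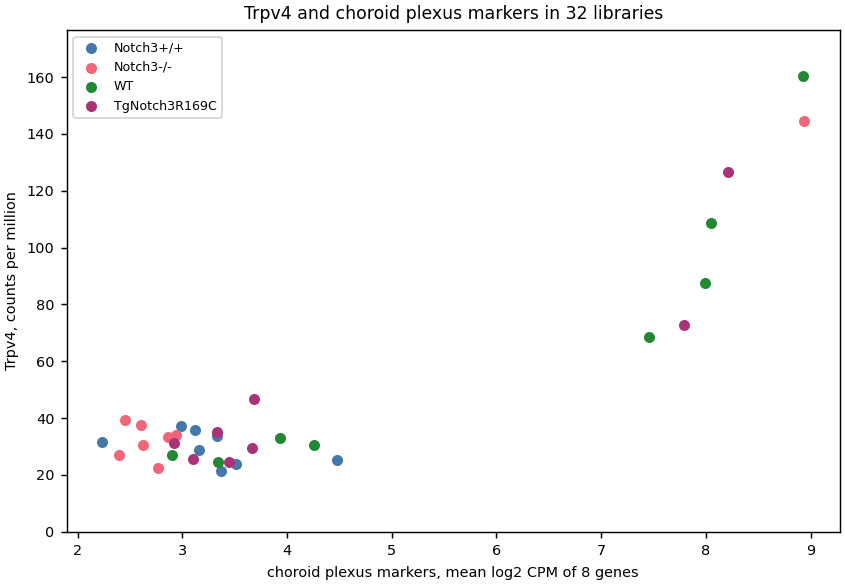
Trpv4 CPM in each of the 32 libraries against the mean log2 CPM of 8 choroid plexus markers, coloured by group. The 7 libraries rich in choroid plexus sit apart at the right with 68.4 CPM of Trpv4 or more, and the 25 at the left stay at 46.8 CPM or less.

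Within the 7 choroid plexus-rich libraries, Trpv4 rose with the mean log2 CPM of the choroid plexus markers (Pearson r = 0.94, exact permutation p = 0.00119, adjusted p = 0.0107 over 9 members; Spearman rho = 0.96, exact permutation p = 0.00278, adjusted p = 0.025), and r was 0.91 over the 5 left without the 2 libraries farthest from the median. These 7 were 1 Notch3-/-, 4 WT and 2 TgNotch3R169C libraries. Group means were not subtracted for them and the permutation ran over all 7 regardless of group. Differences between groups are therefore contained in these values. Within the other 25 libraries, after subtraction of group means, r was −0.066 (permutation p = 0.769, adjusted p = 0.871) and rho −0.055 (permutation p = 0.797, adjusted p = 0.874). No other member reached an adjusted p below 0.05 within either set of libraries for this list. Because the libraries fell into 2 clusters, no correlation over all of them is given for it.

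Pkd2 encodes polycystin-2, a TRP-family cation channel that pairs with polycystin-1 in primary cilia and also acts at the membrane of arterial smooth muscle. Pkd2 (ENSMUSG00000034462) ranged from 329.3 to 398.2 CPM (median 362.2) in Notch3+/+, 323.2 to 386.5 CPM (median 356.4) in Notch3-/-, 337.7 to 364.5 CPM (median 351.4) in WT and 304.7 to 389.4 CPM (median 345.4) in TgNotch3R169C mice. It was even between mice, with a coefficient of variation of 2.99% in WT mice and at most 8.15% elsewhere.

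Piezo1 and Piezo2 encode the large tension-gated channels. PIEZO1 senses flow in endothelium and PIEZO2 is best known as the touch sensor of sensory neurons. Piezo1 (ENSMUSG00000014444) ranged from 74.7 to 98.9 CPM (median 88.7) in Notch3+/+ and from 81.5 to 134.2 CPM (median 97.4) in Notch3-/- mice. It ranged from 83.3 to 108.8 CPM (median 102.4) in WT and from 85.9 to 128.5 CPM (median 94.8) in TgNotch3R169C mice. In the GENCODE vM21 annotation 2441 of its 9935 exon bases lie opposite exons of Ctu2, and the strand setting of the read counting is not given in the sources used here, so reads of the 2 genes may not have been told apart there. Piezo2 (ENSMUSG00000041482) ranged from 36.6 to 58.0 CPM (median 44.9) in Notch3+/+ and from 38.7 to 60.7 CPM (median 49.5) in Notch3-/- mice. It ranged from 29.8 to 47.8 CPM (median 35.96) in WT and from 32.4 to 51.6 CPM (median 43.2) in TgNotch3R169C mice. No member except Piezo1 shared exon bases with another annotated gene.

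**Figure D3:**
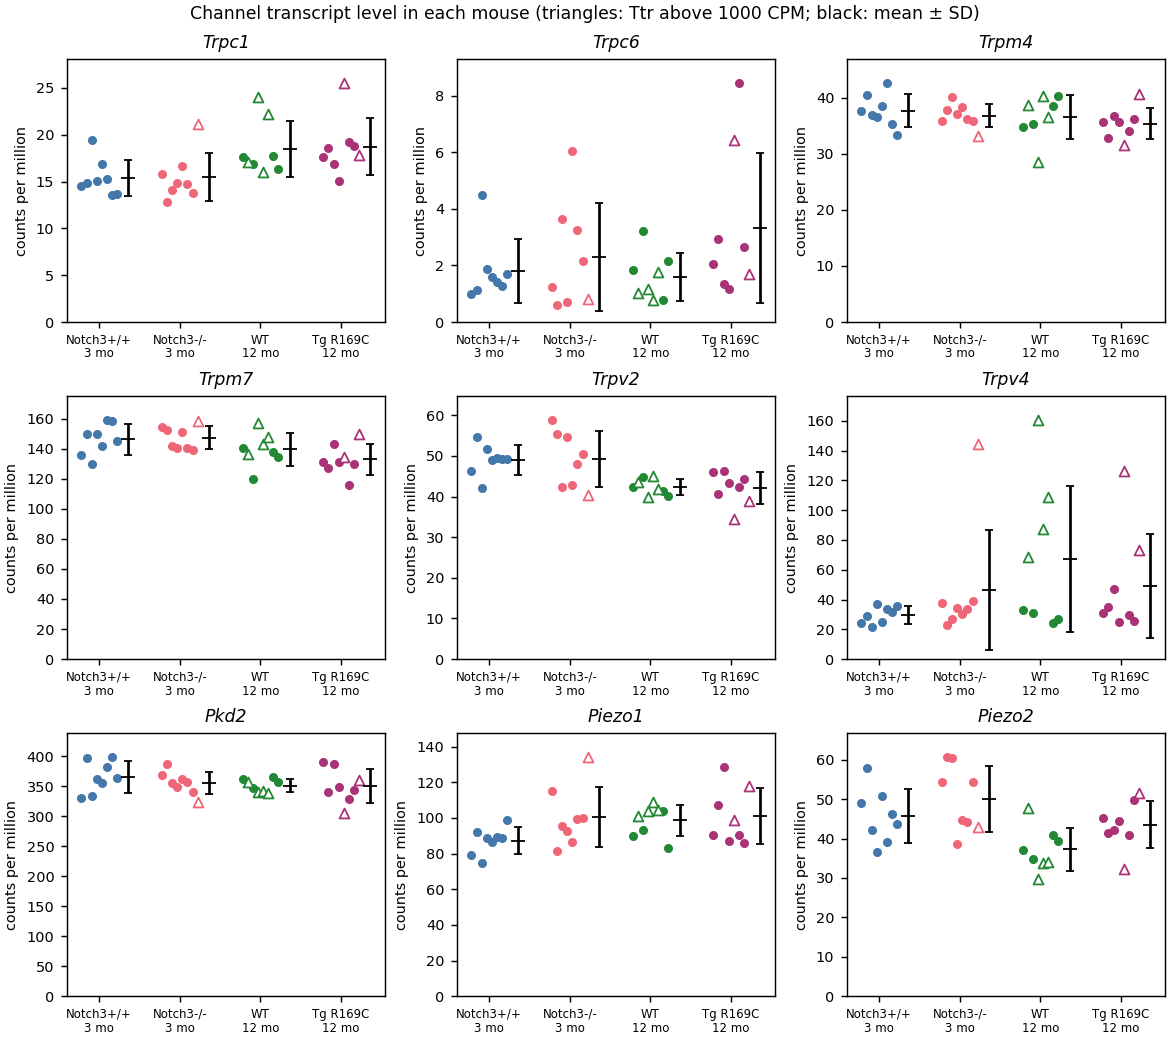
CPM of each channel in every mouse by group (linear axes from 0), with group mean ± SD in black; open triangles are the libraries with more than 1000 CPM of Ttr. Mutant and control ranges overlap for all 9 genes, and the triangles carry the high Trpv4 values.

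The first comparison asked whether loss of NOTCH3 changes the channels in young arteries. None of the 9 channels changed in Notch3-/- mice by edgeR's quasi-likelihood test at an adjusted p below 0.05, where 0.649% of 17714 genes tested were called, and none had mutant and control ranges that did not overlap, which 0.322% of genes had. DESeq2 and limma voom called 0 of the 9 as well, and 1.57% and 0.638% of all genes. Of the 9, only Piezo1 had an unadjusted p below 0.05, which 7.69% of all genes had. It averaged 100.6 ± 16.8 CPM with the null allele and 87.3 ± 7.52 CPM without it (SD, n = 8 each), and its log2 fold change was 0.21 (SE 0.086, 95% interval 0.024 to 0.39, adjusted p = 0.56). Its highest Notch3-/- value was in the choroid plexus-rich library, without which the log2 fold change was 0.14 (adjusted p = 0.619).

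The intervals bound the change of each channel's level in the whole dissected arteries, not in any 1 cell type. They were within −0.14 to 0.10 on the log2 scale for Trpm4, Trpm7 and Pkd2, and ran from −0.20 to 0.21 for Trpc1, from −0.15 to 0.17 for Trpv2 and from −0.095 to 0.36 for Piezo2. They were wide for Trpv4, with a log2 fold change of 0.64 (95% interval −0.044 to 1.31), and for Trpc6, at 0.36 (−0.62 to 1.34). The value of Trpv4 was 0.12 without the choroid plexus-rich library, and that of Trpc6 was −0.010 without the Notch3-/- library at 6.05 CPM. Over the 9 members the median log2 fold change was 0.012, beside −0.0011 over all genes tested. In the same comparison 6 of 8 smooth muscle markers were called lower. Among them were Myh11, the smooth muscle myosin heavy chain (log2 fold change −1.04, adjusted p = 0.000395), and Acta2, smooth muscle actin (−0.63, adjusted p = 0.019). The marker Des went the other way, with a log2 fold change of 0.28 (95% interval 0.090 to 0.47, adjusted p = 0.296). The median over the 8 was −0.63. Whether the fall of the 6 called markers bears on the channels was not tested beyond 1 fit. That fit had the smooth muscle marker level as a covariate and called 0 of the 9 and 0.0903% of all genes. The covariate had a mean log2 CPM of 7.66 to 8.46 in Notch3+/+ and 7.20 to 7.78 in Notch3-/- mice. It overlapped little between the groups, so the fit can hardly separate marker level from genotype.

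**Figure D4:**
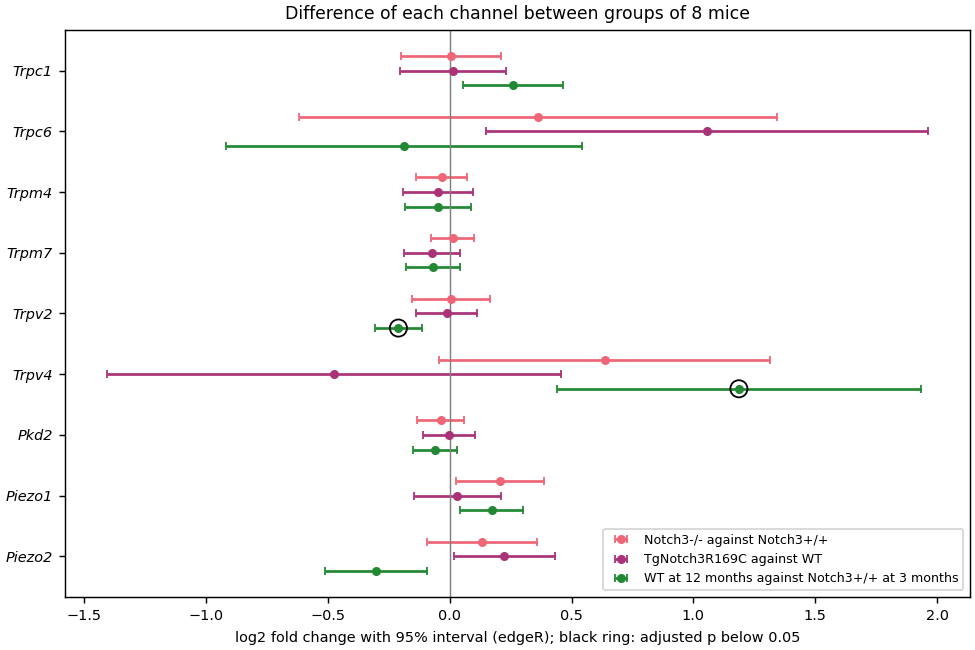
Log2 fold change of each channel with its 95% interval from edgeR for 3 comparisons of 8 against 8 mice; a black ring marks an adjusted p below 0.05. Trpv2 and Trpv4 carry a ring in the comparison of the control groups, and no channel carries one in either mutant.

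The second comparison asked the same of aged arteries with the R169C transgene. None of the 9 channels changed in TgNotch3R169C mice, where edgeR called 0.113% of 17731 genes, and none had ranges that did not overlap, which 0.141% of genes had. DESeq2 and limma voom called 0 of the 9 too, and 0.451% and 0.113% of all genes. Trpc6 and Piezo2 had an unadjusted p below 0.05, which 7.27% of genes had. Trpc6 averaged 3.33 ± 2.66 CPM with the transgene and 1.59 ± 0.835 CPM without it, so that the log2 fold change was 1.06 (SE 0.43, 95% interval 0.15 to 1.96, adjusted p = 0.655). Without the TgNotch3R169C libraries at 6.42 and 8.45 CPM, left out 1 at a time, the log2 fold change was 0.87 and 0.70. Each of these fits still held the other high library, and a fit without both was not run. The neuron marker level of these 2 libraries was the highest and the second highest of the group, at a mean log2 CPM of 6.58 and 6.18, and its part in the result was not tested beyond a fit with that level as a covariate, in which the log2 fold change was 0.37. It was 0.62 without the choroid plexus-rich libraries, 1 of which is the library at 6.42 CPM. Piezo2 was at 43.5 ± 5.93 and 37.2 ± 5.51 CPM, a log2 fold change of 0.22 (SE 0.098, 95% interval 0.017 to 0.43, adjusted p = 0.679).

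Of the 9 members, 4 were narrowly bounded in TgNotch3R169C mice, with intervals of −0.19 to 0.094 for Trpm4, −0.19 to 0.043 for Trpm7, −0.14 to 0.11 for Trpv2 and −0.11 to 0.10 for Pkd2 on the log2 scale. Trpc1 ran from −0.21 to 0.23 and Piezo1 from −0.15 to 0.21. Trpv4 was at 49.1 ± 35.1 CPM against 67.5 ± 49.0 CPM, a log2 fold change of −0.48 (95% interval −1.41 to 0.46), and stood at 0.16 without the choroid plexus-rich libraries, of which WT had 4 and TgNotch3R169C 2. The median log2 fold change of the 9 members was −0.0029, beside −0.0074 over all genes.

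The difference between the changes in the 2 mutants was tested as an interaction over all 4 groups, in which mouse line and age cannot be told apart. None of the 9 channels passed, where edgeR called 0.35% of 18555 genes, and none had an unadjusted p below 0.05, which 8.62% of genes had. DESeq2 and limma voom called 0 of the 9, and 0.835% and 0.366% of all genes. The widest difference was that of Trpv4, with a log2 fold change of −1.10 (95% interval −2.27 to 0.069, adjusted p = 0.606), which was 0.037 without the choroid plexus-rich libraries.

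The third comparison set the control groups side by side, WT at 12 months against Notch3+/+ at 3 months. Age and mouse line cannot be told apart in it. Of the 9 channels 2 changed, where 7.92% of 17643 genes did. Trpv2 was lower at 12 months, as were 4.05% of genes, and Trpv4 was higher, as were 3.87% of genes. No member had ranges that did not overlap, which 1.24% of genes had. DESeq2 called 3 of the 9 and 12.8% of all genes, and limma voom called 1 of the 9 and 7.08% of all genes.

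Trpv2 averaged 42.4 ± 1.98 CPM at 12 months and 49.0 ± 3.63 CPM at 3 months (SD, n = 8 each), and its log2 fold change was −0.21 (SE 0.0459, 95% interval −0.31 to −0.11, adjusted p = 0.0117). It was called with each library left out in turn. Without the choroid plexus-rich libraries, which left 4 WT mice, the log2 fold change was −0.22 (adjusted p = 0.0854, where 2.22% of all genes were called), and with all 4 groups in one fit it was −0.21 (adjusted p = 0.0563). The smooth muscle markers moved the same way: all 8 were called lower in WT mice, with a median log2 fold change of −0.81, and with their level as a covariate that of Trpv2 was −0.13 (adjusted p = 0.553). That fit called 0% of the 17643 genes, where the fit without the covariate called 7.92%. The covariate did not overlap between the groups, with a mean log2 CPM of 7.66 to 8.46 in Notch3+/+ and 6.90 to 7.51 in WT mice. The fit therefore cannot separate marker level from group.

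Trpv4 averaged 67.5 ± 49.0 CPM at 12 months and 29.6 ± 5.80 CPM at 3 months, with a log2 fold change of 1.19 (SE 0.354, 95% interval 0.44 to 1.93, adjusted p = 0.0492). All of this excess lay in 4 WT libraries, which were the 4 rich in choroid plexus. Without them the log2 fold change was −0.047 (SE 0.146, adjusted p = 0.895), and with the choroid plexus marker level as a covariate it was −0.14 (adjusted p = 0.779). In the same comparison 6 of 8 choroid plexus markers were called higher, Ttr by a log2 fold change of 6.54 (adjusted p = 0.00959). The call of Trpv4 was also lost in 12 of the 16 fits that left out 1 library each, with an adjusted p of 0.0279 to 0.0994 over all 16.

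Another 3 members had an unadjusted p below 0.05 in this comparison, making 5 of 9, where 24.2% of all genes had one. Trpc1 had a log2 fold change of 0.26 (95% interval 0.055 to 0.46, adjusted p = 0.107), Piezo1 one of 0.17 (0.043 to 0.30, adjusted p = 0.0903) and Piezo2 one of −0.30 (−0.51 to −0.092, adjusted p = 0.0697). Without the choroid plexus-rich libraries these were 0.15, 0.081 and −0.27. Pkd2, Trpm7, Trpm4 and Trpc6 had log2 fold changes of −0.060, −0.070, −0.047 and −0.19, with intervals that held 0. The median over the 9 members was −0.060, beside 0.0026 over all genes.

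Other genes of the same pathways were read from 4 lists. EdgeR called 0.649%, 0.113% and 7.92% of all genes in the Notch3, transgene and control-group comparisons. The values of these lists were not computed without the choroid plexus-rich libraries. The part of those libraries in the calls between the control groups, where WT had 4 and Notch3+/+ 0 of them, was not tested. Of the other 21 TRP family genes 15 passed the filter on low counts in the Notch3 comparison and 18 in the transgene comparison, and edgeR called none in either; 1 and 3 had an unadjusted p below 0.05. Smallest p values belonged to Mcoln1, the lysosomal mucolipin channel, in Notch3-/- mice (log2 fold change 0.080, adjusted p = 0.493), and to Trpc4, a receptor-operated relative of TRPC1, in TgNotch3R169C mice (1.23, adjusted p = 0.39). Between the control groups 1 of 18 was called, Trpm2, an oxidant-activated channel of immune and endothelial cells, which was higher at 12 months (13.9 ± 2.81 against 9.23 ± 1.62 CPM, log2 fold change 0.59, adjusted p = 0.0132). The median log2 fold change of the list was 0.080, −0.029 and 0.36 in the 3 comparisons.

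Of 18 other stretch-gated channels (two-pore potassium, acid-sensing and TMEM63 channels among them) 14 were tested in each comparison, and edgeR called none in either mutant. The smallest p values in the mutants were those of Kcnk2, the stretch-opened potassium channel TREK-1, with log2 fold changes of −0.14 in Notch3-/- (adjusted p = 0.735) and −0.19 in TgNotch3R169C mice (adjusted p = 0.626). Between the control groups Tmem63b, an osmosensitive cation channel, was higher at 12 months (log2 fold change 0.16, adjusted p = 0.0307). The medians of this list were 0.0028, 0.12 and 0.20.

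The receptor and lipase arm comprised 13 genes of Gq-coupled receptors, Gq proteins, phospholipase C enzymes and steps after them. Of these 12 were tested, with none called in either mutant. Agtr1a, an angiotensin receptor, had a log2 fold change of −0.55 in Notch3-/- mice (adjusted p = 0.478), and Gnaq, the Gq alpha subunit, one of 0.096 in TgNotch3R169C mice (adjusted p = 0.69). Between the control groups Agtr1b, the second angiotensin type 1 receptor of the mouse, fell at 12 months (log2 fold change −0.39, adjusted p = 0.0233), as did Gnaq (−0.15, adjusted p = 0.0383). Among 13 partners of the channels, such as the STIM and ORAI proteins and caveolin, none was called in any of these 3 comparisons. The smallest p values there were those of Stoml3 in Notch3-/- mice (log2 fold change −1.72, adjusted p = 0.696), Orai3 in TgNotch3R169C mice (−0.12, adjusted p = 0.601) and Orai2 between the control groups (0.64, adjusted p = 0.057).

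How each channel varied between mice of the same group was set beside marker lists of 11 cell or tissue types. Log2 CPM was taken after subtraction of the group mean, p values came from 100000 permutations within groups, and adjusted values cover all 99 pairs of a member and a list. Apart from the choroid plexus list, 18 of 90 pairs passed by Pearson r over all 32 libraries, and 8 of those by Spearman rho as well. Over the 25 libraries that were not rich in choroid plexus 8 of 90 passed, and 6 passed in both sets with the same sign. Lists of one tissue rise and fall together, and every value of a library shares its depth, so the pairs are not independent.

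The relation of Trpv2 with neuron markers, which was negative, had the smallest permutation p of these 90 pairs over 32 libraries and the largest absolute r of them over the 25. Over 32 libraries r was −0.63 (permutation p = 4e-05, adjusted p = 0.00198) and rho −0.59 (permutation p = 0.00052, adjusted p = 0.0129), and r was −0.51 without the 2 libraries farthest from the list's median. Over the 25 libraries r was −0.79 (adjusted p = 0.00099, whose permutation p of 1e-05 is the smallest that 100000 permutations can give) and rho −0.76 (permutation p = 9e-05, adjusted p = 0.00891). Libraries with a higher neuron marker level thus held less Trpv2. Trpm7 and Pkd2 varied in the same direction. For Trpm7 and the neuron list r was −0.54 (permutation p = 0.00277, adjusted p = 0.0231) and rho −0.54 (permutation p = 0.003, adjusted p = 0.0371), with r −0.51 without the 2 farthest and −0.68 over the 25 libraries. For Pkd2 r was −0.55 (permutation p = 0.00166, adjusted p = 0.0164) and rho −0.49 (permutation p = 0.00633, adjusted p = 0.057), with r −0.40 without the 2 farthest and −0.66 over the 25 libraries. Pkd2 was also higher with a higher pericyte marker level over 32 libraries, with r 0.58 (adjusted p = 0.0136) and rho 0.59 (adjusted p = 0.0176). For macrophage and microglia markers r was 0.58 (adjusted p = 0.0136) and rho 0.58 (adjusted p = 0.0178). For endothelial markers r was 0.54 (adjusted p = 0.024) and rho 0.48 (adjusted p = 0.074). Over the 25 libraries r with these lists, in this order, was 0.52, 0.39 and 0.51 (adjusted p = 0.124, 0.318 and 0.154).

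Trpc6, unlike Trpv2, Trpm7 and Pkd2, was higher in libraries with a higher neuron marker level. Over 32 libraries r was 0.65 (permutation p = 8e-05, adjusted p = 0.00264) and rho 0.62 (permutation p = 0.00031, adjusted p = 0.0102), r was 0.55 without the 2 farthest libraries, and over the 25 libraries r was 0.60 (adjusted p = 0.029) and rho 0.59 (adjusted p = 0.0515). Trpc6 was also higher with a higher astrocyte marker level over 32 libraries. There r was 0.51 (permutation p = 0.00321, adjusted p = 0.0231) and rho 0.62 (permutation p = 0.00025, adjusted p = 0.0102). Over the 25 libraries r with astrocyte markers was 0.44 (adjusted p = 0.156). The low counts of Trpc6 add noise to these values.

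Piezo1 followed endothelial markers. Over 32 libraries r was 0.46 (permutation p = 0.00785, adjusted p = 0.037) and rho 0.51 (permutation p = 0.0044, adjusted p = 0.0484), with r 0.59 without the 2 farthest libraries and 0.72 over the 25 libraries (permutation p = 0.00011, adjusted p = 0.00545). Trpv4 followed the same markers over the 25 libraries, with r 0.70 (permutation p = 0.00044, adjusted p = 0.0109) and rho 0.62 (permutation p = 0.00261, adjusted p = 0.0369), while over all 32 libraries r was −0.13 (adjusted p = 0.605). Trpm7 was also related to them over the 25 libraries by r (0.63, adjusted p = 0.029) but not by rho (0.59, adjusted p = 0.0515). Piezo2 was lower in libraries with a higher astrocyte marker level, with r −0.60 (permutation p = 0.00067, adjusted p = 0.0133) and rho −0.58 (permutation p = 0.00174, adjusted p = 0.0246) over 32 libraries, r −0.51 without the 2 farthest and −0.72 over the 25.

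Smooth muscle markers were related to 1 member over 32 libraries, Trpv2, with r 0.52 (permutation p = 0.00294, adjusted p = 0.0231). Its rho was 0.44 (permutation p = 0.0159, adjusted p = 0.0983), and r was 0.54 without the 2 farthest. Over the 25 libraries these markers were related to no member, and r for Trpv2 was 0.34 (adjusted p = 0.352). The relation of Trpv2 was not particular to smooth muscle. By r over 32 libraries it also passed with macrophage and microglia (0.49, adjusted p = 0.039), fibroblast (0.48, adjusted p = 0.0247) and pericyte markers (0.45, adjusted p = 0.0289). By rho it passed with none of these, and over the 25 libraries r with pericyte markers was 0.45 (adjusted p = 0.156). The largest r of the 90 pairs outside the choroid plexus list over 32 libraries was that of Trpm4 with pericyte markers, at 0.68 (permutation p = 0.00029, adjusted p = 0.00718; rho = 0.51, permutation p = 0.00611, adjusted p = 0.057), which was 0.46 without the 2 farthest libraries and 0.23 over the 25 (adjusted p = 0.585). For Trpm4 and smooth muscle markers r was 0.31 (adjusted p = 0.218) over 32 libraries and −0.028 (adjusted p = 0.954) over the 25.

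**Figure D5:**
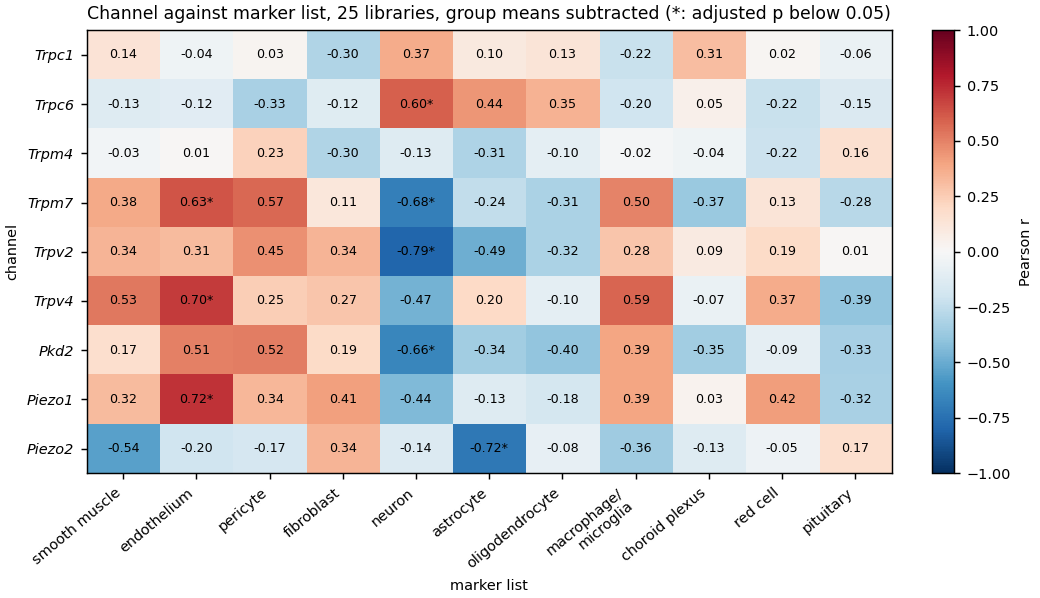
Pearson r between each channel (rows) and the mean log2 CPM of each marker list (columns) over the 25 libraries with less than 1000 CPM of Ttr, group means subtracted; the colour scale runs from −1 to 1 and a star marks an adjusted p below 0.05. Stars stand at neuron markers for Trpc6, Trpm7, Trpv2 and Pkd2, at endothelium for Trpm7, Trpv4 and Piezo1, and at astrocytes for Piezo2.

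For each member the genes whose level was most alike over the 32 libraries were taken, as Pearson r of log2 CPM after subtraction of group means among genes with a mean of at least 1 CPM. These values describe the libraries and carry no test. For Trpv4 they were Elovl7 (r = 0.97), Slc31a1 (0.96) and Sowahc (0.95) over all 32 libraries, and Ccm2l (0.92), Adam15 (0.90) and Slc9a3r2 (0.89) over the 25 without the choroid plexus-rich ones, so none of the 3 genes was shared between the sets. For Trpc6 they were Ak5, Rtn4rl2 and Nsmf in both sets, with r of 0.88 to 0.89 over 32 and 0.89 to 0.92 over 25. For Piezo1 they were St6galnac2 (0.82), Lama5 (0.81) and F11r (0.81) over 32, and Tnfrsf1b (0.88), Adam10 (0.87) and Tie1 (0.85) over 25.

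For the remaining members the most alike genes over 32 libraries were Ccdc88c, Faxc and Ssx2ip for Trpc1 (r = 0.83 to 0.84), Slc26a2, St3gal4 and Slc12a7 for Trpm4 (0.86 to 0.88), Kat2b, Snx9 and Scaf11 for Trpm7 (0.81 to 0.82), Ogn, Vcl and Irf3 for Trpv2 (0.81 to 0.86), Sp1, Abcb1a and Atl3 for Pkd2 (0.83 to 0.87) and Cdh1, Serpinb9 and Afap1l1 for Piezo2 (0.75 to 0.81). Among the members themselves, the highest r over 32 libraries was 0.65 between Trpv4 and Piezo1, and the lowest was −0.59 between Trpc1 and Pkd2. Neither value was computed without the 7 choroid plexus-rich libraries, and their part in it was not tested. Median CPM in those 7 and in the other 25 was 108.7 and 30.6 for Trpv4 and 104.5 and 90.4 for Piezo1. It was 21.1 and 15.8 for Trpc1 and 340.2 and 357.4 for Pkd2.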

How the data were processed

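Brain arteries of 32 mice gave 1 polyA-selected, stranded library each. The values deposited by the authors are raw counts of reads on each Ensembl gene (mm39; the submitters' processing notes name STAR 2.5.3a and HTSeq 0.6.1p1 among other tools); the annotation and strand setting are not given in the sources used here. Counts were tested with edgeR 4.0.16 (filterByExpr, TMM, quasi-likelihood test, Benjamini-Hochberg over all genes tested, adjusted p below 0.05) between 2 groups at a time, and with DESeq2 1.42.0 and limma 3.58.1 as alternatives, in R 4.3.3. Intervals are 95%. Replicates are separate mice; none was a duplicate of another. The fits were also run on simulated counts, with no outcome given here. Those counts were drawn gene by gene, so tissue content shared across the genes of a library was not simulated. Exon lengths came from GENCODE vM21 (GRCm38), used as lengths only. Members and gene lists were chosen with earlier results of these data known. Genes outside the 9 members are named if called, if among the 3 smallest p of a list in a comparison, or if among the 3 most alike to a member. Of the smallest-p genes the text gives the first, and of called marker genes 2 or fewer per list. Des is named as a smooth muscle marker that was higher in Notch3-/- mice. Added exclusions, of libraries above 1000 CPM of Ttr and of the 2 libraries farthest from a list's median, were chosen after seeing the data, and Ttr was chosen after its values were seen.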

Additional observations from a re-analysis of the deposited data

Results flagged for a closer look

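Values of 1 mouse far from the other 7 of its group, by Dixon's gap relative to the range, occurred in 5 of 36 groups of a member. Chance gives about 1.8 if values are normal and the 36 are independent, but the members share their libraries. Trpv4 in Notch3-/- replicate 8 stood at 144.6 CPM with the next mouse at 39.2 CPM (gap 0.864 of the range). Trpc6 in Notch3+/+ replicate 3 stood at 4.48 CPM with the next at 1.87 CPM (0.748). Trpc1 stood at 25.5 CPM in TgNotch3R169C replicate 5 with the next at 19.3 CPM (0.598), and at 21.1 CPM in Notch3-/- replicate 8 with the next at 16.7 CPM (0.529). Trpm4 was lowest in WT replicate 4, at 28.4 CPM with the next at 34.7 CPM (0.529). Of these 5 values 4, all but that of Notch3+/+ replicate 3, came from libraries that held more than 1000 CPM of Ttr, and their part in these values was not tested.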

How the results depend on the processing

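The number of members called stayed at 0 in both mutants and in their difference under every alternative, including each fit that left out 1 mouse. Few genes of any kind were called in these fits, of 15690 or more tested in each. The number was 16 to 278 in Notch3-/- mice, 2 to 80 in TgNotch3R169C mice and 39 to 155 in the difference. Between the control groups 2 members and 1398 of 17643 genes were called. Without a filter on low counts these became 1 (Trpv2) and 1158 of 36153. The numbers were 1 (Trpv2) and 1249 of 17643 with limma voom, and 3 (Trpv2, Trpv4 and Piezo2) and 2262 of 17643 with DESeq2. With the neuron covariate they were 3 (Trpv2, Trpv4 and Piezo1) and 1499 of 17643. No member was called with all 4 groups in one fit (1524 of 18555 genes) or with the smooth muscle covariate (0 of 17643). The same held with the choroid plexus covariate (288 of 17643) and without the libraries above 1000 CPM of Ttr (402 of 18086). When 1 mouse was left out, 1 to 3 members were called, and 895 to 1621 genes. Of the 9 members 6 kept their rank by CPM per kilobase without the Ttr-rich libraries, and all 9 kept it with the longest transcript as length or with CPM per kilobase computed without TMM scaling. Pairs of a member and a list past the threshold fell from 24 to 8 without those libraries, in which fewer mice were tested.

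The replicate number did not pair the mice (correlations of same-numbered mice from −0.25 to 0.42, with 4 of 8 over 0.1 in each mutant comparison and 3 of 8 between controls). With it as a block, 1 member was called between the control groups (Piezo2), where 715 of 17643 genes were. In the other comparisons 0 members were called, and 97 of 17714 genes in Notch3-/- mice, 6 of 17731 in TgNotch3R169C mice and 63 of 18555 in the difference.

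Of 387 log2 fold changes of single members under other settings, 338 kept their direction and side of the threshold, 10 lost a call, 3 gained one and 36 changed sign; the last are given here, and except for Trpv4 between the control groups none of them was a call in the values reported.

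With limma voom the values were Trpc1 −0.015 in Notch3-/- mice, Trpc1 −0.0078 in TgNotch3R169C mice. With the replicate block the values were Trpc1 −0.00069 and Trpv2 −0.0019 in Notch3-/- mice. With the smooth muscle marker covariate the values were Trpc1 −0.064, Pkd2 0.0042 and Piezo2 −0.11 in Notch3-/- mice, Trpc1 −0.15, Trpm4 0.033, Trpv2 0.071 and Pkd2 0.055 in TgNotch3R169C mice, Trpc1 −0.044 and Trpm4 0.12 in the control groups, Pkd2 −0.013 in the difference between mutants. With the choroid plexus marker covariate the values were Trpc1 −0.018 in Notch3-/- mice, Trpv4 0.16 in TgNotch3R169C mice, Trpc6 0.11, Trpm4 0.00095 and Trpv4 −0.14 in the control groups. With the Ttr-rich libraries left out the values were Trpc1 −0.064 in Notch3-/- mice, Trpv2 0.054 and Trpv4 0.16 in TgNotch3R169C mice, Trpc6 0.15 and Trpv4 −0.047 in the control groups, Trpv2 0.0056 and Trpv4 0.037 in the difference between mutants. With RLE normalization the values were Pkd2 0.0023 in TgNotch3R169C mice. With at least 10 counts in every library the values were Pkd2 0.0015 in TgNotch3R169C mice. With DESeq2 Wald test the values were Pkd2 0.0025 in TgNotch3R169C mice. With the neuron marker covariate the values were Trpc1 −0.074, Trpv2 0.024 and Pkd2 0.031 in TgNotch3R169C mice, Trpc1 −0.057, Trpm4 0.0075 and Trpv2 0.045 in the difference between mutants. With no filter the values were Trpc1 −0.0011 in the difference between mutants.

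Leaving out 1 mouse at a time turned the sign of these, which ranged from −0.0084 to 0.037 for Trpm7, −0.025 to 0.049 for Trpv2, −0.064 to 0.063 for Trpc1 and −0.010 to 0.71 for Trpc6 in Notch3-/- mice, −0.029 to 0.030 for Pkd2, −0.056 to 0.077 for Trpc1, −0.036 to 0.030 for Trpv2 and −0.029 to 0.061 for Piezo1 in TgNotch3R169C mice, −0.42 to 0.16 for Trpc6 and −0.074 to 0.00035 for Trpm4 in the control groups, −0.065 to 0.079 for Trpc1, −0.058 to 0.019 for Trpv2 and −0.058 to 0.017 for Trpm4 in the difference between mutants. No cause was tested. Depth limited mainly Trpc6, with 16 to 324 reads per library.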
